A study of Mus musculus with 6 samples.

Results

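The 9 genes described here are Cd74, the MHC class II chain genes H2-Aa, H2-Ab1 and H2-Eb1, and the B cell genes Cd79a, Cd79b, Ms4a1, Pax5 and Cd22. They were taken by symbol from the 15452 genes of the deposited count table. All 9 had a row, and all 9 were among the 15361 genes that passed the filter on low counts. They were read in mouse Th17 cultures, made from naive CD4+ T cells of spleen and lymph node that were bead-sorted and kept for 3 days with plate-bound antibody to CD3 (5 µg/mL), antibodies to CD28 (1 µg/mL) and to interferon γ (5 µg/mL), IL-6 (30 ng/mL) and TGFβ (2 ng/mL). The 3 knockout (KO) libraries came from PDHfl/fl CD4 Cre+ mice and the 3 wild-type (WT) libraries from PDHfl/fl mice without Cre, so both groups carry the floxed alleles and, by the labels, KO alone carries Cre. CD4 Cre recombines floxed alleles in T cells, and any effect of Cre itself cannot be told apart from that of the deletion. The labels give no age, sex or strain and leave unsaid if each replicate is its own mouse, and they spell the locus PDH in the genotype and protocol and PHD in the sample titles. The p-values therefore measure the spread between these samples only.

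Class II molecules are pairs of an alpha and a beta chain that show peptides to CD4+ T cells. They are made mainly by B cells, dendritic cells and macrophages, under the transcriptional coactivator CIITA, and CD74 (the invariant chain) helps the chains assemble and blocks their groove until they reach the loading compartment. The other genes mark B cells: CD79A and CD79B are the signalling chains of the B cell receptor, MS4A1 is CD20, CD22 is an inhibitory coreceptor, and PAX5 is the transcription factor that sets B cell identity. Mouse T cells are not a classical source of class II molecules, and naive CD4+ T cell sorting is meant to remove B cells.

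Of the 9 genes, Cd74 alone passed the test between genotypes, and it was higher in KO. The other 8 were each highest in the same 3 libraries, KO replicates 2 and 3 and WT replicate 2, and lower in KO replicate 1 and WT replicates 1 and 3. For Cd79b the gap in WT was small, with WT replicate 2 at 1.36-fold the mean of WT replicates 1 and 3, against 3.12-fold or more for the other 7. In the edgeR quasi-likelihood fit 1 gene was called higher, 0 lower and 8 were not called at an adjusted p under 0.05, where 47.6% of all tested genes were called (23.1% higher and 24.5% lower). Under upper-quartile scaling 4382 of 7309 calls over all genes were higher, against 3548 of 7311 here, and Cd74 was still the only member called. The median log2 fold change, KO over WT, was 2.00 over the 9 genes and 0.01 over all tested genes. That large median sits beside 8 genes with standard errors between 0.68 and 1.98, and the KO and WT libraries of all 8 overlapped. A gene was said to follow genotype when it was called, its KO and WT libraries did not overlap, and its spread within a genotype was no larger than its fold change. It was said to follow libraries when that spread was larger, the spread being the log2 ratio of the highest to the lowest library in the wider group with 0.1 CPM added to each. By this rule 1 gene followed genotype and 8 followed libraries. The share of all tested genes that follow libraries was not counted. The label also goes to genes with little spread and hardly any genotype difference, such as the T cell gene Cd3e (log2 fold change -0.04, spread 0.12). By itself it does not set the 8 genes apart.

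**Figure D1:**
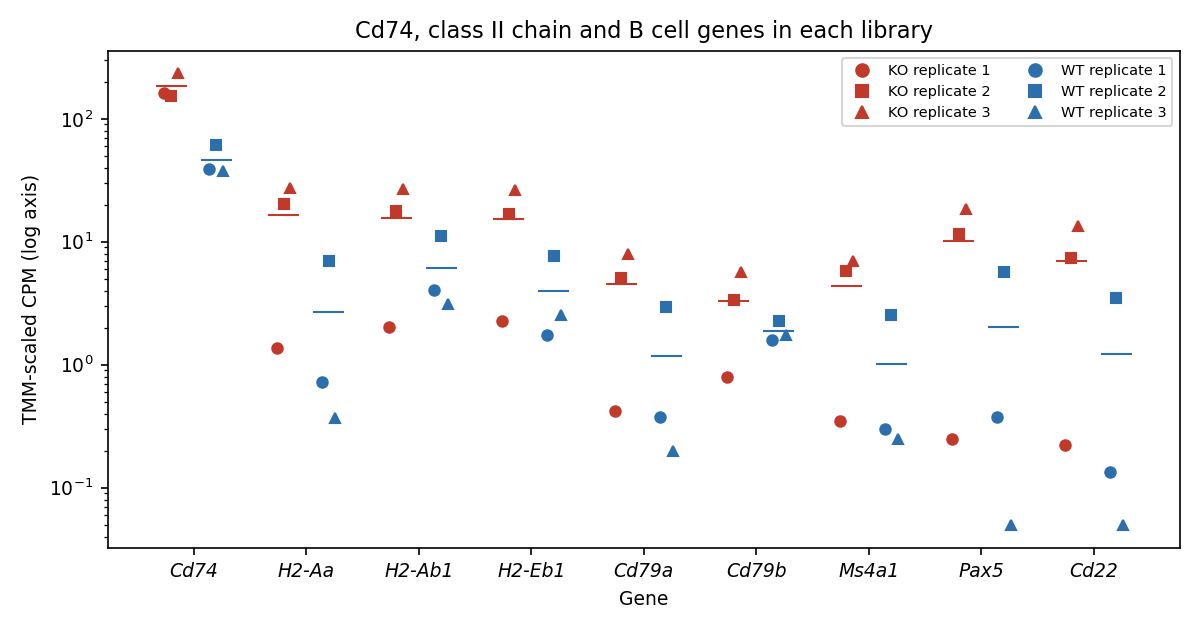
TMM-scaled CPM (log axis) of each gene, with a point per library, KO left of WT and a bar at the group mean (n = 3 each). Cd74 is the only gene whose KO points all lie above its WT points, while in every other gene KO replicate 1 lies among or below the WT points.

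Total counts ran from 33802154 to 39398842 in KO and from 37556787 to 40407124 in WT. CPM here are counts scaled to the library total times its TMM factor. A library with 0 counts of a gene could hold up to 3, or 0.0741 to 0.0859 CPM, and such limits cover counting error only. Il17a, which encodes the cytokine that defines Th17 cells, was read in every library: it stood at 57.0 to 69.8 CPM in KO and 147 to 159 CPM in WT. Counts over whole genes do not show an exon deletion, but of the PDH genes Pdha1 was lower in KO (-0.36 ± 0.06, SE, on the log2 scale, adjusted p = 0.000871 by edgeR's quasi-likelihood test) and so was Dlat (-0.68 ± 0.06, adjusted p = 3.55e-05). Pdhb was not called (-0.14 ± 0.06, adjusted p = 0.063 by the same test). Of all tested genes 24.5% were called lower, so these calls say little about the label. KO replicate 2 stood apart in that 4.95% of its counts fell on a single unnamed entry, against 0.0796 to 0.215% in the other 5 libraries, and the value of Cd74 without it is given below.

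Cd74 (ENSMUSG00000024610.16) was at 163, 154 and 234 CPM in KO replicates 1 to 3, against 38.8, 61.5 and 37.3 CPM in WT replicates 1 to 3. Every KO library was above every WT library, and the spread within a genotype was narrow, with the highest library 1.52-fold over the lowest in KO and 1.65-fold in WT. The means were 184 ± 43.9 CPM in KO and 45.9 ± 13.5 CPM in WT (SD, n = 3 each). The log2 fold change was 2.00 ± 0.29 (SE, adjusted p = 0.00461 by edgeR's quasi-likelihood test). Groups that do not overlap were seen in 58.2% of all tested genes, 28.8% with KO higher. Leaving out each library in turn gave log2 fold changes from 1.79 to 2.27 with adjusted p from 0.00337 to 0.0226 (edgeR), including 2.11 without KO replicate 2. Within each genotype Cd74 was highest in a library that was also high in B cell genes, KO replicate 3 and WT replicate 2, yet KO replicate 1, which was low in them, held 4.28-fold the mean of WT replicates 1 and 3. Setting KO replicate 1 against WT replicates 1 and 3 gave a log2 fold change of 2.10 (edgeR), with no KO spread to set beside it. In bulk RNA, fewer or more cells of a type and less or more RNA per cell cannot be told apart, for Cd74 or for any gene below.

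The class II chain genes followed libraries. H2-Aa, the alpha chain of the I-A molecule, was at 1.36, 20.4 and 27.6 CPM in KO replicates 1 to 3, against 0.729, 6.94 and 0.371 CPM in WT replicates 1 to 3. H2-Ab1, its beta chain, was at 2.03, 17.7 and 27.0 CPM in KO, against 4.08, 11.2 and 3.11 CPM in WT. H2-Eb1, the beta chain of I-E, was at 2.25, 16.9 and 26.5 CPM in KO, against 1.73, 7.73 and 2.55 CPM in WT. In each of them KO replicates 2 and 3 were highest and WT replicate 2 came next, and KO replicate 1 lay within or below the range of WT replicates 1 to 3. The fitted log2 fold changes were 2.61 ± 1.62 for H2-Aa, 1.34 ± 1.10 for H2-Ab1 and 1.92 ± 1.13 for H2-Eb1 (SE, adjusted p = 0.258, 0.379 and 0.236 by edgeR's quasi-likelihood test). Their highest KO library held 18.9-fold, 12.7-fold and 11.3-fold the lowest KO library (0.1 CPM added), a wider gap than between the group means. Per kilobase of exon (GENCODE M21), Cd74 stood at 109 CPM in KO and 27.3 CPM in WT, and the 3 chain genes at 4.33 to 7.82 CPM in KO and 0.706 to 2.39 CPM in WT, so the gene for the chaperone was well above the genes for the chains it binds in both genotypes.

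The promoters of H2-Aa and H2-Eb1 are shown as those of class II chain genes. Class II promoters are known for a shared set of elements, the X box and the Y box, through which CIITA acts. Each window runs from 250 bases before to 50 bases after the gene start in RefSeq (GRCm38.p6), 5′ to 3′ along the gene, and 5 of the 9 genes had one. Capitals mark CCAAT or its reverse ATTGG (the core of the Y box), the palindrome TGACGTCA (a CRE-type X2 element) and a run of AG, any 2 bases, AC, any 1 base and GATG (letters of the X1 element), searched on both strands.
H2-Aa promoter, chr17:34287774-34288073, minus strand: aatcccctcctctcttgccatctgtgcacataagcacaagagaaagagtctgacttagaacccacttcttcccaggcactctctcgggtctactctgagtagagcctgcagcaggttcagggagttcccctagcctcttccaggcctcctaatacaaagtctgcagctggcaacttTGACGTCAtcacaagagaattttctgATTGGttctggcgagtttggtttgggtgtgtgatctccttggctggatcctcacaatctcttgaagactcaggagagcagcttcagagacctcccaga
H2-Eb1 promoter, chr17:34305617-34305916, plus strand: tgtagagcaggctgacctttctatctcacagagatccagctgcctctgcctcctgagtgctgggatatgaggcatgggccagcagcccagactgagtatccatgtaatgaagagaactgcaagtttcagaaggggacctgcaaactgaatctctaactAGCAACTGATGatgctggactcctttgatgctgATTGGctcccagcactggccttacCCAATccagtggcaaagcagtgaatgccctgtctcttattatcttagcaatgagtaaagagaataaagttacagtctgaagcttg
H2-Aa held TGACGTCA from 74 bases and ATTGG from 48 bases before its start. H2-Eb1 held AGCAACTGATG from 92 bases, ATTGG from 59 bases and CCAAT from 35 bases before its start. Of the 32851 promoter windows, 37.4% held CCAAT or ATTGG, 1.79% held TGACGTCA and 0.968% held the X1 letters. These are matches of letters, and none of the other 3 windows read, those of Cd79a, Pax5 and Cd22, held any of these motifs.

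The genes of the B cell receptor followed libraries as well. Cd79a, the alpha signalling chain, was at 0.421, 5.04 and 8.02 CPM in KO replicates 1 to 3, against 0.378, 2.93 and 0.198 CPM in WT replicates 1 to 3. Cd79b, the beta signalling chain, was at 0.792, 3.35 and 5.72 CPM in KO, against 1.59, 2.28 and 1.75 CPM in WT. Their groups overlapped, and the 2 genes differed in their low libraries: Cd79b in WT replicates 1 and 3 was at 1.67 CPM on average, above its KO replicate 1, whereas Cd79a was at few counts in all 3 low libraries, with 17 counts in KO replicate 1 and 14 and 8 in WT replicates 1 and 3. The log2 fold changes were 1.94 ± 1.49 for Cd79a and 0.80 ± 0.68 for Cd79b (SE, adjusted p = 0.347 and 0.379 by edgeR's quasi-likelihood test). Cd79b was the only member other than Cd74 to be called when a single library was left out: without KO replicate 1 it passed as higher in KO (1.27, edgeR, adjusted p = 0.00536).

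Ms4a1, which encodes CD20, was at 0.347, 5.81 and 6.94 CPM in KO replicates 1 to 3, against 0.297, 2.51 and 0.247 CPM in WT replicates 1 to 3. Cd22 was at 0.223, 7.39 and 13.5 CPM in KO, against 0.135, 3.48 and 0.0494 CPM in WT. Pax5 was at 0.248, 11.5 and 18.4 CPM in KO, against 0.378, 5.63 and 0.0494 CPM in WT. All 3 genes split by library, with Pax5 at 402 and 651 counts in KO replicates 2 and 3 and 215 in WT replicate 2, but at 10 counts in KO replicate 1 and 14 and 2 in WT replicates 1 and 3. The mean of KO replicates 2 and 3 was 60.5-fold that of KO replicate 1 for Pax5, 46.8-fold for Cd22 and 18.4-fold for Ms4a1. WT replicate 2 was 26.3-fold, 37.8-fold and 9.24-fold the mean of WT replicates 1 and 3 for the same genes in the same order. The log2 fold changes between genotypes were 2.32 ± 1.98 for Pax5, 2.52 ± 1.96 for Cd22 and 2.09 ± 1.47 for Ms4a1 (SE, adjusted p = 0.395, 0.353 and 0.306 by edgeR's quasi-likelihood test).

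The Cd22 promoter is shown because of the 3 B cell windows read (Cd79a, Pax5 and Cd22) it alone held TCCC and GGGA set 2 bases apart, the core letters bound by the early B cell factor EBF1, and none held the octamer ATGCAAAT on either strand. Capitals mark the match, TCCCTGGGGA, 49 bases before the start.
Cd22 promoter, chr7:30878979-30879278, minus strand: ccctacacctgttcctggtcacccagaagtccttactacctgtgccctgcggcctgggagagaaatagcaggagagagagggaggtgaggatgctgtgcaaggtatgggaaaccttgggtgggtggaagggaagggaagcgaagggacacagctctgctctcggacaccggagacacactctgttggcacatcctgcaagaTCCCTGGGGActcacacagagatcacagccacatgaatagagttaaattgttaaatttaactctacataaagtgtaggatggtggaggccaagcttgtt
The EBF1 letters were found in 0.904% and the octamer in 1.74% of all promoter windows. The match is a description of letters, not a site shown to be bound.

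**Figure D2:**
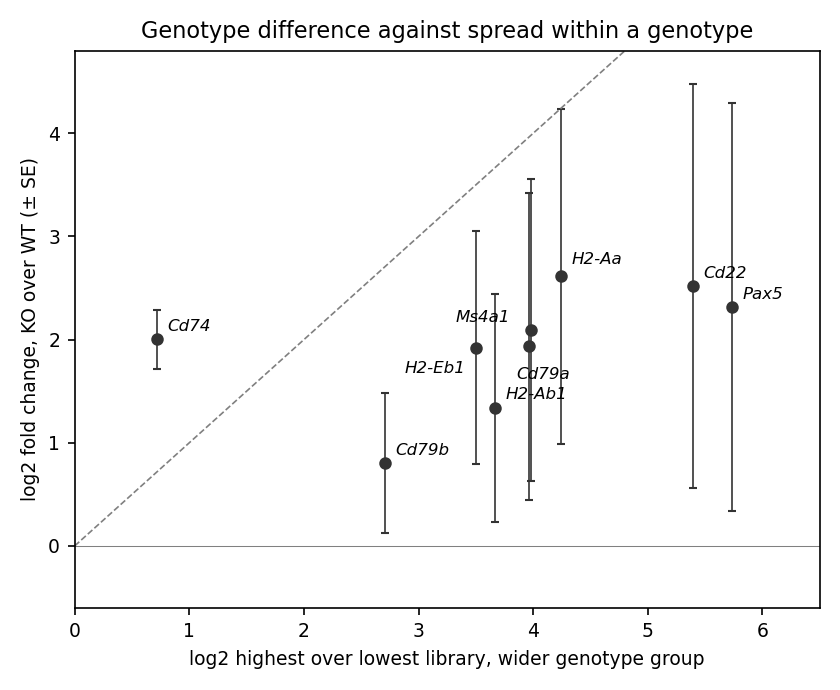
Log2 fold change of KO over WT (± SE, 6 libraries) against the log2 ratio of the highest to the lowest library in the wider genotype group (0.1 CPM added), with the dashed line where they are equal. Cd74 lies above the line at a spread of 0.72, and the other 8 genes lie below it at spreads from 2.71 to 5.74.

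Set against each other within a library, the class II chain genes and the B cell genes kept a near fixed ratio wherever they were high. The summed CPM of Cd79a, Cd79b, Ms4a1, Pax5 and Cd22 was 2.03, 33.1 and 52.6 in KO replicates 1 to 3, against 2.78, 16.8 and 2.30 in WT replicates 1 to 3. The summed CPM of H2-Aa, H2-Ab1 and H2-Eb1 was 5.64, 54.9 and 81.0 in KO, against 6.54, 25.9 and 6.03 in WT. The chain sum was 1.66 and 1.54 times the B cell sum in KO replicates 2 and 3 and 1.54 times in WT replicate 2, but 2.78 times in KO replicate 1 and 2.35 and 2.62 times in WT replicates 1 and 3. Pax5 likewise made up 34.8% and 35.1% of the B cell sum in KO replicates 2 and 3 and 33.4% in WT replicate 2, against 12.2% in KO replicate 1 and 13.6% and 2.15% in WT replicates 1 and 3. The 3 high libraries thus held these genes in like proportions across genotypes, and the low libraries did not share them.

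Cd74 did not keep such a ratio. It was 28.8 times the chain sum in KO replicate 1 but 2.81 and 2.89 times in KO replicates 2 and 3, against 5.93 and 6.18 times in WT replicates 1 and 3 and 2.37 times in WT replicate 2. Counted as a difference from the low libraries of the same genotype, the B cell sum was 31.1 CPM higher in KO replicate 2, 50.6 CPM in KO replicate 3 and 14.3 CPM in WT replicate 2. The chain sum was 49.3, 75.4 and 19.6 CPM higher in those libraries, and Cd74 was 71.5 CPM higher in KO replicate 3 and 23.4 CPM higher in WT replicate 2 but differed by -8.51 CPM in KO replicate 2. The differences in Cd74 between the high and low libraries of a genotype were smaller than the gap between its KO mean of 184 CPM and its WT mean of 45.9 CPM.

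**Figure D3:**
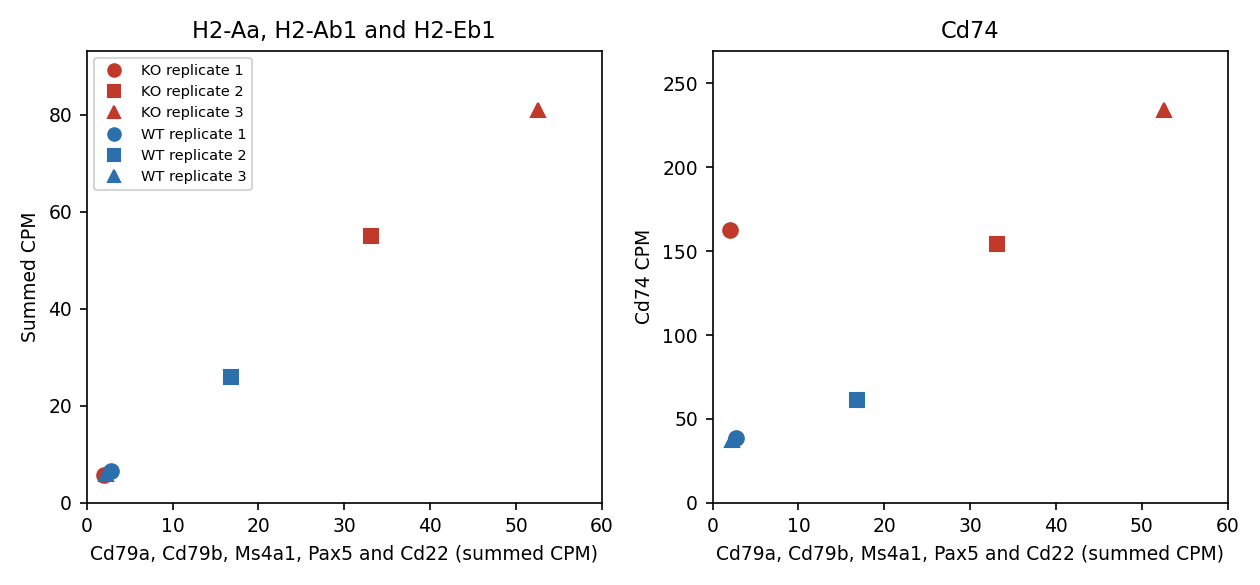
Summed CPM of the 3 class II chain genes (left) and CPM of Cd74 (right) against the summed CPM of the 5 B cell genes, with a point per library. The chain genes rise with the B cell genes from 5.64 to 81.0 CPM in KO and from 6.03 to 25.9 CPM in WT, while Cd74 in KO replicate 1 stands at 163 CPM where the B cell genes stand at 2.03 CPM.

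KO replicates 2 and 3 and WT replicate 2 were then set aside. These 3 libraries were picked by their levels of B cell genes, and the 1 KO library left gives no KO spread, so only fold changes are given. KO replicate 1 against WT replicates 1 and 3 gave log2 fold changes (edgeR) of -0.82 for H2-Ab1 and -1.08 for Cd79b, the reverse of their direction over all 6 libraries. H2-Aa was at 1.31, and H2-Eb1, Cd79a, Ms4a1 and Pax5 were at 0.08, 0.56, 0.35 and 0.24 in the same edgeR fit. Cd22 fell under the filter there and has no value. With the summed level of 17 B cell markers that were under 3 CPM in the low libraries as a covariate, Cd74 was at 1.75 ± 0.22 (edgeR, adjusted p = 0.00482). H2-Ab1 was at -0.71 ± 0.19 in that fit (edgeR, adjusted p = 0.0173), and no other member was called. The 17 markers were picked by the same split of libraries after the data were seen. These adjusted p-values therefore describe that split and allow no conclusion about the members.

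**Figure D4:**
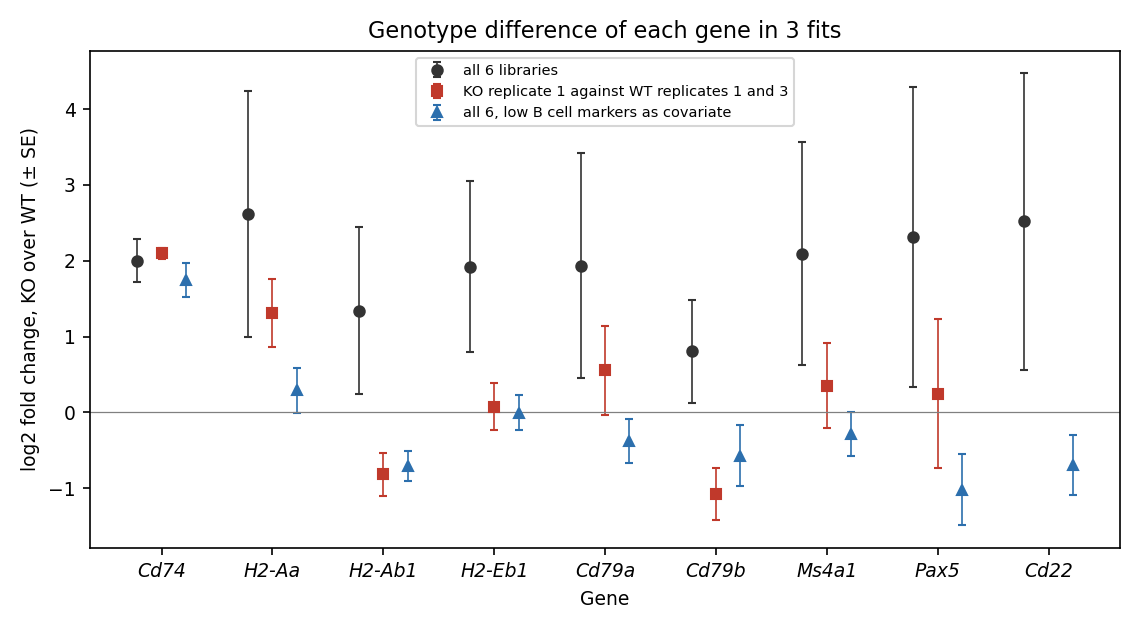
Log2 fold change of KO over WT (± SE) of each gene over all 6 libraries, with KO replicate 1 set against WT replicates 1 and 3, and over all 6 libraries with 17 low B cell markers as a covariate. In the second fit the SE holds no KO spread. Cd74 lies between 1.75 and 2.10 in all 3 fits, and H2-Ab1 and Cd79b are below 0 in both other fits. Cd79a, Ms4a1, Pax5 and Cd22 are below 0 with the covariate, where H2-Eb1 (-0.0042 ± 0.23, SE) shows no direction. Cd22 has no value in the second fit.

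Among all 15361 tested genes, 65 (0.423%) were at least 2-fold higher in both KO replicates 2 and 3 than in KO replicate 1 and in WT replicate 2 than in both other WT libraries. This library pattern was defined after the values were seen and is a description. It held for 7 of the 9 members, all but Cd74 and Cd79b. It also held for 22 of the 41 tested genes of the B cell lists, which include the 5 B cell members. The lists are therefore not separate from the members. Some of these genes, such as Cd22 and Fcer2a, reached 10 counts only in the 3 high libraries. Their place among the deposited rows rests on those libraries. The immunoglobulin light chain gene Igkc was at 1.63, 15.8 and 31.4 CPM in KO replicates 1 to 3 and 0.919, 8.04 and 0.445 CPM in WT replicates 1 to 3. Of the 65 genes 3 were called between genotypes. Among the 5 nearest profiles to that of Pax5, by the root mean square difference of centred log2 CPM over the 6 libraries, were Ighg2b (0.16), Fcer2a (0.31), Bcl11a (0.47) and Mef2c (0.67). Nearest to H2-Ab1 were Tnfrsf13c, which encodes the BAFF receptor of B cells (0.13), Lyn (0.36), Napsa (0.42), Cybb (0.42) and Btk (0.48). Nearest to Cd74 were Sspo (0.13), Ccl5 (0.15), Xaf1 (0.17), Gm38020 (0.20) and S100a3 (0.21), with Sspo at 4.18, 3.72 and 4.82 CPM in KO and 1.00, 1.39 and 0.914 CPM in WT. By the same measure Cd74 itself lay 2.36 from Pax5 and 1.24 from H2-Ab1. Lists this close to their own targets could not share a gene with that of Cd74, so their lack of overlap adds nothing.

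Beyond the chains, the class II loading genes showed no shared change with genotype. Of 12 tested genes of peptide loading, 1 rose (Cd74), 2 fell and 9 were not called, and of 4 chain genes none was called. Among all tested genes 47.6% were called. Ctsl, a protease that cuts CD74 in thymic epithelium, fell to 6.34 ± 0.67 CPM in KO, against 12.1 ± 1.79 CPM in WT (-0.93 ± 0.14, SE, edgeR, adjusted p = 0.000609). Lgmn, a lysosomal protease, fell to 12.2 ± 0.62 CPM in KO, against 16.0 ± 2.54 CPM in WT (-0.39 ± 0.12, SE, adjusted p = 0.0231 by edgeR), and lost its call without KO replicate 2, KO replicate 3 or WT replicate 3 (adjusted p from 0.0568 to 0.0692) and under upper-quartile scaling (0.0708). The genes of the peptide exchange factor H2-DM and of its inhibitor H2-O differed among themselves. H2-DMb2, an H2-DM beta chain gene, had the order of the chain genes, at 3.04, 7.22 and 10.5 CPM in KO replicates 1 to 3 and 2.03, 4.79 and 2.37 CPM in WT replicates 1 to 3, and H2-DMb1 was at 1.21, 2.69 and 3.77 CPM in KO and 1.65, 1.89 and 1.58 CPM in WT. H2-DMa was at 14.1, 18.4 and 21.8 CPM in KO and 19.6, 17.2 and 19.5 CPM in WT, and H2-Ob, a subunit of the inhibitor H2-O, was at 1.63, 4.24 and 4.90 CPM in KO and 5.89, 3.77 and 7.09 CPM in WT. For H2-Ob the libraries low in B cell genes stood highest in WT and lowest in KO, and the same held for the other subunit gene, H2-Oa. None of these 5 genes was called.

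Of 8 tested genes of class II transcription 3 rose, none fell and 5 were not called, where 47.6% of all tested genes were called (23.1% higher). Ciita, the coactivator named above, was at 0.594, 5.47 and 9.12 CPM in KO replicates 1 to 3, against 0.189, 1.94 and 0.0494 CPM in WT replicates 1 to 3. It was in the 65 genes of the library pattern and was not called (2.80 ± 1.58, SE, edgeR, adjusted p = 0.219). KO replicate 1 against WT replicates 1 and 3 gave 2.32 (edgeR) from 24 counts against 7 and 2. Rfx5, which binds the X box, rose to 40.9 ± 2.42 CPM in KO, against 26.4 ± 1.02 CPM in WT (0.63 ± 0.07, SE, edgeR, adjusted p = 0.000148). The NF-Y subunit genes Nfyc and Nfya, whose product binds the Y box, rose with log2 fold changes of 0.47 and 0.23 (edgeR, adjusted p = 0.00278 and 0.00764), with Nfyb not called.

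Of 9 tested genes of interferon γ signalling, which induces Ciita in many cells, 3 rose, 4 fell and 2 were not called. Irf1, an interferon-induced transcription factor, rose to 55.3 ± 1.87 CPM in KO, against 35.3 ± 1.17 CPM in WT (0.65 ± 0.06, SE, edgeR, adjusted p = 5.97e-05). Jak2, a kinase of the receptor, rose with a log2 fold change of 0.24 (edgeR, adjusted p = 0.0149). The receptor chain gene Ifngr1 fell to 30.9 ± 0.47 CPM in KO, against 57.9 ± 3.69 CPM in WT (-0.90 ± 0.07, SE, edgeR, adjusted p = 2.07e-05), and Ifngr2, Irf8 and Socs1, a feedback inhibitor, fell too and had log2 fold changes of -0.53, -0.50 and -0.48 (edgeR, adjusted p = 0.0014, 0.0363 and 0.00888). The calls of Jak2 and Irf8 were lost when some single libraries were left out, with adjusted p (edgeR) of 0.0709 without WT replicate 1 and 0.0638 without KO replicate 2 for Jak2, and from 0.0804 to 0.121 without any 1 WT library for Irf8, and at 0.0675 under upper-quartile scaling. The fit of KO replicate 1 against WT replicates 1 and 3 holds no KO spread, so it was not used to judge these calls. Over all class II lists 13 of 33 genes were called, 7 higher and 6 lower, with a median log2 fold change of 0.18. That share lies under the 47.6% of all tested genes. Among the 29 genes that are not members 6 were higher and 6 lower, with a median log2 fold change of 0.0031.

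Few genes listed with B cells were called between genotypes. Of 40 tested genes of the B cell receptor, signalling, transcription and immunoglobulin lists, 7 were called higher, 1 lower and 32 not at all, with a median log2 fold change of 1.77. Both the share called and the share called higher lie under the 47.6% and 23.1% of all tested genes. Without KO replicate 1 the count of calls was 16, and without KO replicate 2, KO replicate 3 or WT replicate 3 it was 5. Tnfrsf13b, which encodes the receptor TACI, was at 140, 115 and 120 CPM in KO, against 80.3, 79.5 and 72.6 CPM in WT (0.69 ± 0.08, SE, edgeR, adjusted p = 0.00016). Pou2af1, the coactivator OCA-B, was at 79.6, 95.4 and 112 CPM in KO, against 41.3, 55.6 and 41.0 CPM in WT (1.05 ± 0.17, SE, edgeR, adjusted p = 0.00253). Both were abundant in every library, unlike the 5 B cell members, and their groups did not overlap. Vav3, Prdm1, Fcgr2b, Pou2f2 and Irf4 rose by 1.11, 2.22, 1.89, 0.35 and 0.17 on the log2 scale, and Xbp1 fell by 1.06 (edgeR, adjusted p from 7.83e-06 to 0.0497). Of these, Irf4 lost its call when any 1 library was left out (adjusted p from 0.0638 to 0.137), Fcgr2b when either KO replicate 2 or 3 or WT replicate 1 or 3 was (up to 0.102), and Pou2f2 when KO replicate 2 or 3 or WT replicate 3 was (up to 0.0826). Spib, an ETS factor of B cells and plasmacytoid dendritic cells, was at 2.15, 14.7 and 19.2 CPM in KO, against 0.432, 4.03 and 0.445 CPM in WT (2.87 ± 1.35, SE, edgeR, adjusted p = 0.156). Its KO replicate 1 was also above WT replicates 1 and 3 (2.29 between them, edgeR), and DESeq2 called it over all 6 libraries (adjusted p = 0.0462).

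Markers of other cells that carry class II molecules were read beside these results. Of 24 listed B cell markers outside the 9 genes, 21 had a row. All 21 summed to 292, 400 and 506 CPM in KO replicates 1 to 3, against 199, 284 and 177 CPM in WT replicates 1 to 3. The 17 of them under 3 CPM in the low libraries summed to 10.8, 89.3 and 140 CPM in KO, against 10.0, 41.7 and 7.96 CPM in WT. These 17 were picked for being low there, so part of their contrast is built in. Of the 21, Cd72, Fcmr and Tnfrsf13b lacked the members' library order in at least 1 genotype. In WT replicate 3 the light chain gene Iglc2 was at 0 counts, which allows up to 0.0741 CPM. Of 12 monocyte and macrophage markers 7 had a row and summed to 6.56, 6.16 and 10.5 CPM in KO, against 25.2, 10.0 and 10.8 CPM in WT, with none of them at 0 in any library. Their sum, most of it from Lyz2, Adgre1 and Cd68, was highest in WT replicate 1, where H2-Ab1 stood at 4.08 CPM. Within the list Spi1, which B cells also express, had the order of the B cell genes, at 0.0495, 0.630 and 1.13 CPM in KO and 0.243, 0.393 and 0.0988 CPM in WT, and Cd68 was highest in KO replicate 3. Mpeg1, a macrophage pore protein gene, was the only one called and fell to 0.446, 0.229 and 0.510 CPM in KO, against 2.49, 0.681 and 1.48 CPM in WT (-1.96 ± 0.49, SE, edgeR, adjusted p = 0.0115, and 0.0837 with the 17 low B cell markers as covariate). Of 12 dendritic cell markers 7 had a row and 3 were called higher in KO: Fscn1 by 5.39, Itgax by 2.79 and Zbtb46 by 0.82 on the log2 scale (edgeR, adjusted p = 6.97e-05, 0.00288 and 0.0105). Among all tested genes 47.6% were called, with 23.1% higher, so this count is not read as a result about dendritic cells. Between KO replicate 1 and WT replicates 1 and 3 Fscn1, Itgax and Zbtb46 were at 6.05, 3.06 and 0.49 (edgeR), with no KO spread. Itgax, which encodes CD11c, was at 0.347, 0.573 and 0.765 CPM in KO, against 0.0270, 0.157 and 0.0494 CPM in WT, so it too separated by genotype, at a level of 14 to 27 counts in KO. The dendritic cell list summed to 491, 516 and 541 CPM in KO and 520, 390 and 486 CPM in WT, most of it Ccr7, which T cells also express. Flt3, a receptor of dendritic cell precursors, had the library pattern instead, with 15, 145 and 188 counts in KO replicates 1 to 3, against 3, 78 and 5 counts in WT replicates 1 to 3. So did Cd8a, which CD8 T cells and some dendritic cells express, at 1.04, 8.85 and 2.95 CPM in KO, against 1.24, 3.69 and 1.16 CPM in WT, and it was highest in KO replicate 2 where the B cell genes were highest in KO replicate 3. The part of these cells in the levels of Cd74 and of the chain genes was not tested. The T cell markers Cd4, Cd3d and Trac were lower in KO, with log2 fold changes of -0.50, -0.67 and -0.79 (edgeR, adjusted p = 0.000218, 6.87e-05 and 0.000101), and Cd3e was not called.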

How the data were processed

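RNA of 6 Th17 culture libraries, 3 KO and 3 WT by the genotype labels, was prepared with a stranded mRNA kit, per the labels' protocols. The deposited values are estimated counts per gene, made by the authors from the reads and written as whole numbers. Salmon, DESeq2 and DESeq are the tools in the submitters' processing notes, with their roles, versions, annotation and genome build not given in the sources used here. Every deposited row held at least 10 counts in 3 libraries. Unversioned gene IDs were matched to GENCODE M21 symbols (15138 matched, 314 did not). Transcript-based counting can split reads between near-identical genes, so the class II chain genes, which resemble each other, carry that uncertainty.

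Tests were made in R 4.3.3 with edgeR 4.0.16 (limma 3.58.1 as an alternative), after filterByExpr (91 genes removed) and TMM scaling, by a quasi-likelihood model (robust) of genotype alone with Benjamini-Hochberg adjustment over 15361 genes at 0.05. The fit was tested on simulated data with the same dispersion for every gene, which does not cover genes that vary between libraries as most members do. CPM are TMM-scaled. Profiles were compared on log2 CPM (prior count 2, mean of at least 1 CPM). No libraries were alike enough to be duplicates (chi-square per degree of freedom at least 24.4). The members and lists were chosen with earlier results of these data known. All 9 members are named, with up to 6 genes of each list by smallest p and the 5 nearest profiles. Ciita, H2-DMa, H2-DMb1, H2-DMb2, H2-Oa, H2-Ob, Spi1, Cd68, Cd72, Fcmr, Igkc, Spib, Iglc2, Flt3, Cd8a and Ccr7 were chosen after their values were seen, whatever the rule takes. Some genes that this rule takes are not reported here. Summed markers and ratios carry no test. Of 6 erythroid and 6 neutrophil markers 0 had a row. NK cell markers (2 of 6 had a row) had 0 called, and of the 2 CD8 T cell markers Cd8b1 fell by 0.62 on the log2 scale (adjusted p = 0.00951). Figures used matplotlib 3.10.9 under Python 3.11.15.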

Additional observations from a re-analysis of the deposited data

How the results depend on the processing

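Alternatives were RLE, upper-quartile and library-total scaling, no filter, a filter of at least 50 counts in 3 libraries, DESeq2 1.42.0, limma-voom, no robust dispersion, a replicate block, omission of each library, the 3 libraries with raised B cell markers left out, and B cell markers as a covariate. Cd74 was called as higher in KO in all 18 of them, with log2 fold changes from 1.31 to 2.27 and adjusted p from 3.2e-09 to 0.0483. The fit with the 3 libraries left out holds no KO spread, so its call carries no weight. The other members were mostly limited by the spread between libraries. Members called numbered 1, against 2 with either covariate, and 1 to 2 without single libraries. B cell pathway genes called numbered 5 to 16 without single libraries. The covariate of all 21 B cell markers, which is mostly Tnfrsf13b, Pou2af1 and Ighm, left 3127 of all genes called, against 7311, and 7 class II pathway genes, against 13. Of the values of the other named genes under these alternatives, 55 lost their call and 5 gained one, most of the losses with all B cell markers as covariate or without single libraries.

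The covariate of all B cell markers carries genotype as well, since Tnfrsf13b and Pou2af1 in it were called higher in KO. Reversals under it therefore allow no conclusion about the genes. Direction reversed with all B cell markers as covariate for H2-Aa (-1.94), H2-Ab1 (-2.13), H2-Eb1 (-1.42), Cd79a (-2.45), Cd79b (-1.41), Ms4a1 (-2.14), Pax5 (-3.53), Cd22 (-3.27), Ciita (-1.56) and Spib (-0.67). It reversed with the 17 low markers as covariate, chosen after seeing the data, for H2-Ab1 (-0.71), Cd79a (-0.37), Cd79b (-0.57), Ms4a1 (-0.29), Pax5 (-1.02) and Cd22 (-0.70), and with the 3 libraries left out for H2-Ab1 (-0.82) and Cd79b (-1.08). H2-Eb1 stood at -0.0042 ± 0.23 (SE) with the 17 low markers, too small to give a direction. The cause of the reversals was not tested. Of the 5 genes nearest to H2-Ab1, 1 was kept with no limit on mean CPM.

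Libraries with the same replicate number had correlations of deviations of -0.10, 0.09 and -0.26. With 3 libraries in each genotype such values cannot settle if the numbers pair samples. With the replicate block 7218 genes were called, Cd74 stayed at 2.01 (adjusted p = 0.0483), members called numbered 1, class II pathway genes 14 and B cell pathway genes 7.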
